A study of Mus musculus with 2 samples.

Results

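The globins and red cell genes followed here were Hba-a1, Hba-a2, Hbb-bs and Hbb-bt (adult globins), Hba-x, Hbb-y and Hbb-bh1 (embryonic globins), and Alas2, Slc4a1 and Ahsp (genes of late red cell precursors), measured in mouse adrenal gland. They were matched by symbol, and the genes were named with earlier results of these data known. Of the 10 symbols, 9 matched a row among 55536 annotated genes, and Ahsp is not analysed here. The study sequenced total RNA of the adrenal gland of male B6CASTF1/J mice, the first-generation offspring of C57BL/6J and CAST/EiJ parents, at 14 days of age. There was 1 group with 2 libraries, labelled biological replicates 1 and 2, and the labels name no treatment or mutant allele. Each library started from 300 ng of RNA and carried ERCC spike-ins. The labels use the words 3x Males without explaining them, list 1 donor record for both libraries, and number the pool alike in one field and differently in another. The SD (n = 2) may therefore not span separate animals. With 1 group and n = 2 no p-value is given, and every comparison is between genes within a library or between the replicates.

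Haemoglobin joins alpha-like chains, encoded on mouse chromosome 11, with beta-like chains, encoded on chromosome 7. Primitive red cells of the yolk sac use the embryonic genes, and red cells made later in the fetal liver, spleen and bone marrow use the adult genes. Reticulocytes, the youngest red cells in blood, have lost their nucleus but still carry globin mRNA, whereas nucleated erythroblasts, normally kept in the blood-forming organs, also transcribe the genes of the red cell membrane and their transcription factors.

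Sequencing depth was 32963248 expected counts for replicate 1 and 36260745 for replicate 2, with 17154352 and 19024838 of these on the 22015 nuclear protein-coding genes. The tissue label was checked against 6 cortex and 6 medulla genes, all 12 of which reached 1 TPM (a level per transcript length) in both libraries. Their summed levels were 5919 and 6436 TPM for the cortex and 1313 and 1343 TPM for the medulla. Other tissues differed more. The 8 hepatocyte genes summed to 299.2 TPM in the replicate 1 library and 5200 in that of replicate 2, with 8 of 8 higher in replicate 2 and Apoc2 at 0 counts in replicate 1. The 9 lymphocyte genes summed to 79.6 and 10.8 TPM, with 9 of 9 lower in replicate 2, and the 9 neutrophil genes to 9.06 and 22.1 TPM. Their part in the results below was not tested.

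The adult globin copies differ little in their coding sequence, so reads from there can seldom be assigned to 1 copy. In GENCODE M21 the coding sequences of Hba-a1 and Hba-a2 are 429 bases long and differ at 1 base, C381T, and those of Hbb-bs and Hbb-bt are 444 bases long and differ at 1 base, C417T. Positions are counted from 1 at the A of the start codon, and the first gene named has the first base. Both changes fall on the last base of a codon (codons 127 and 139) and keep the amino acid. The CAST/EiJ alleles were not examined. The windows around both changes are shown with the base that differs in capitals, because only they tell the GENCODE M21 coding sequences apart. They lie on mm10 at chr11:32284313-32284373 (Hba-a1) and chr11:32297130-32297190 (Hba-a2) on the plus strand and at chr7:103826665-103826722 (Hbb-bs) and chr7:103812656-103812713 (Hbb-bt) on the minus strand, all coding.
Hba-a1: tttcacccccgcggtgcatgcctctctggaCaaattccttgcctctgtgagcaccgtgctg
Hba-a2: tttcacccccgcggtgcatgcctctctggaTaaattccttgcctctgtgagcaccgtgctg
Hbb-bs: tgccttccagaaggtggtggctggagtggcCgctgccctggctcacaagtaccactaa
Hbb-bt: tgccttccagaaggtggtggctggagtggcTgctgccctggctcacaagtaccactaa
The embryonic genes are far from the adult ones. Hba-x matched Hba-a1 at 62.0% of coding bases, Hbb-y and Hbb-bh1 matched Hbb-bs at 74.3% and 74.1%, and Hbb-y matched Hbb-bh1 at 76.4%. None of the 31-base words of an embryonic transcript occurred in the adult transcript it was compared with, since 100% of its words were its own.

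Promoters of 7 of the 9 matched genes were found in the RefSeq table (GRCm38.p6), and those of an adult pair, an embryonic pair and Alas2 are shown because these genes span the highest and the lowest levels described below. Each is the 120 bases before the RefSeq start, on the gene's strand. Capitals mark matches on either strand. The motifs searched were TGATAA, bound by GATA factors, the variant AGATAA of that motif, CACCC, bound by Krüppel-like factors, the box named CCAAT, the start-site box TATAAA, and its globin variant CATAAA. None of these motifs holds another, although matches can overlap.
Hba-a1: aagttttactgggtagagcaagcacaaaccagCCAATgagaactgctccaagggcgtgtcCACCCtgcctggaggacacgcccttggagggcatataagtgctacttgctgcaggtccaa
Hbb-bs: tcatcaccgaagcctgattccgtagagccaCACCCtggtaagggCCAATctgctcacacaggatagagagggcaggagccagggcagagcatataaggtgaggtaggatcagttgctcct
Hba-x: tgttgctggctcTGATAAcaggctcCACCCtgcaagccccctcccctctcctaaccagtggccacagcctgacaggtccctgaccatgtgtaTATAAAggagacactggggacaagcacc
Hbb-y: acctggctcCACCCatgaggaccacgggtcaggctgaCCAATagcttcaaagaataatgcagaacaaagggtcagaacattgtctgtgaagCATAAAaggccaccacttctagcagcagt
Alas2: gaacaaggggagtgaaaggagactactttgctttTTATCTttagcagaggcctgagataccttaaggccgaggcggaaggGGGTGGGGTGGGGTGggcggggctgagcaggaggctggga
They lie at chr11:32283552-32283671 (Hba-a1, plus strand), chr7:103827929-103828048 (Hbb-bs, minus), chr11:32276480-32276599 (Hba-x, plus), chr7:103853208-103853327 (Hbb-y, minus) and chrX:150547297-150547416 (Alas2, plus). GENCODE M21 starts a transcript further upstream for each of these genes, so that 120, 120, 120, 9 and 42 of the bases, in that order, lie within the gene as GENCODE draws it. Over the full 300 bases of the table, 250 before and 50 after the start, CACCC occurred in 7 of 7 promoters, against 57.5% of all 32851 promoters in the table. CCAAT occurred in 5 of 7 (37.4% of all), TGATAA in 4 (9.05%), TATAAA in 3 (13.6%), AGATAA in 2 (11.2%) and CATAAA in 1 (11.9%). Adult and embryonic globins thus shared CACCC in every promoter searched, and the promoters of Hba-a1 and Hba-a2 were the same at 297 of 297 bases after an offset of 3. Such matches describe letters and are no evidence of binding.

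The adult globins were among the most abundant mRNAs of the gland. Hba-a1, an adult alpha chain (chr11:32283511-32284465, ENSMUSG00000069919.7), had an RSEM level of 3140 TPM in replicate 1 and 2487 in replicate 2. Hba-a2, the second adult alpha chain (chr11:32296489-32297298), stood at 2894 and 2249 TPM. Hbb-bs, an adult beta chain of the C57BL/6 haplotype (chr7:103826534-103828096), stood at 3186 and 2345 TPM. Among nuclear protein-coding genes these 3 ranked 2, 3 and 1 in replicate 1 and 2, 4 and 3 in replicate 2. Hbb-bt, the other adult beta chain (chr7:103812524-103813996), was lower, at 380.9 and 319.0 TPM, and ranked 57 and 83. Together the 4 genes took 3.50% and 2.66% of nuclear protein-coding TPM (3.08% ± 0.593, SD, n = 2), and by counts 0.961% (95% exact binomial interval 0.957 to 0.966) and 0.726% (0.722 to 0.729); such intervals cover counting error only. In bulk tissue fewer blood cells and less globin RNA per cell cannot be told apart.

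Embryonic globins had no RSEM counts. Hba-x, the embryonic zeta-like chain, Hbb-y, an embryonic epsilon-like chain, and Hbb-bh1, the beta-h1 chain, were each at 0 counts in both libraries. A limit of 3 counts corresponds to 0.154 TPM for Hba-x, 0.171 TPM for Hbb-y and 0.178 TPM for Hbb-bh1 in replicate 1, and to 0.142, 0.158 and 0.164 TPM in replicate 2. Against the sum of these limits, 0.503 and 0.464 TPM, the adult globins were at least 19086-fold higher in replicate 1 and at least 15947-fold higher in replicate 2. The kallisto values, the second quantification of the same reads, placed 5 estimated counts on the embryonic genes in replicate 1 (2 on Hba-x, 1 on Hbb-y and 2 on Hbb-bh1) and 1 in replicate 2, on Hbb-y. These few counts made up 0.00355% and 0.000761% of kallisto globin TPM.

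**Figure D1:**
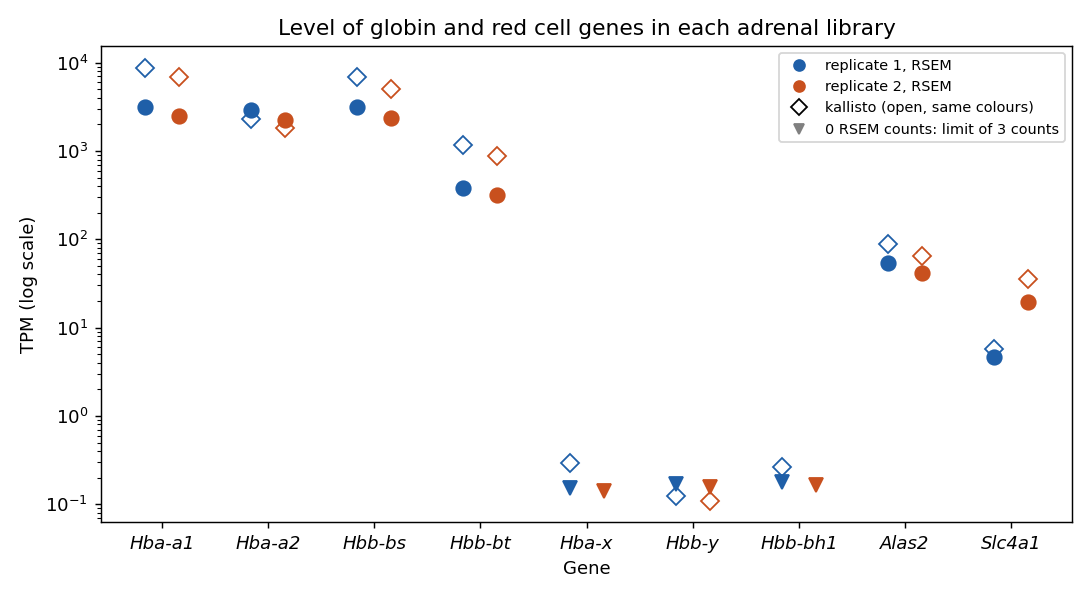
TPM of the 9 matched genes on a log axis, with filled circles for RSEM values and open diamonds for kallisto values of replicate 1 (blue) and replicate 2 (orange), and triangles at the limit of 3 counts where RSEM gave 0; kallisto values of 0 are not drawn. The adult globins lie between 319.0 and 3186 RSEM TPM, the embryonic globins at 0 RSEM counts and at most 0.297 kallisto TPM, and Slc4a1 is the one gene higher in replicate 2.

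Other members of the globin family were low. Cygb, cytoglobin, which is found in fibroblast-like cells, was the highest at 9.31 and 8.35 TPM, and Mb, the oxygen store of muscle, stood at 1.56 and 1.83 TPM. These 2 were the only members of the 8-gene list to reach 1 TPM in both libraries. The theta-like genes Hbq1b (11.4 and 15.2 counts, 0.75 and 0.86 TPM) and Hbq1a (1.6 and 4.8 counts) and the neuronal globin Ngb (8 and 6 counts) lay below that. Hbb-bh2 and the alpha pseudogenes Hba-ps3 and Hba-ps4 were at 0 RSEM counts in both libraries. Reads of the 2 theta copies may be shared between them.

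Alpha and beta chains were compared as sums over copies. The sums still depend in part on the split of reads, because TPM divides by length and the effective length in RSEM was 600 bases for Hba-a1-201 and 455 bases for Hba-a2-201. The alpha sum was 6034 TPM (replicate 1) and 4736 TPM (replicate 2), and the beta sum was 3567 and 2664 TPM. The alpha to beta ratio was 1.69 and 1.78 (1.73 ± 0.0612, SD, n = 2), nearly alike in the libraries although both sums were lower in replicate 2. By kallisto the ratio was 1.36 and 1.47, and from RSEM expected counts, not divided by length, 1.63 and 1.71. Alpha exceeded beta in all 6 of these values. Both kallisto ratios lay below both RSEM TPM ratios, whereas the ranges from RSEM TPM and from expected counts overlapped.

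The split within each pair depended on the tool for alpha and less so for beta. RSEM gave Hba-a1 52.0% and 52.5% of the pair's TPM, and kallisto gave it 79.4% and 79.1%. Hbb-bs took 89.3% and 88.0% of the beta pair by RSEM and 85.7% and 84.8% by kallisto. Each tool thus repeated its own split in both libraries, and the tools differed by far more than the libraries did for Hba-a1. Of the 31-base words in a transcript, 28.7% of those of Hba-a1-201 and 8.97% of those of Hba-a2-201 were absent from the other copy, against 33.1% for Hbb-bs-201 and 40.6% for Hbb-bt-201. Of 100-base words, 43.5% and 25.5% were own to Hba-a1-201 and Hba-a2-201, and 37.4% and 45.2% to Hbb-bs-201 and Hbb-bt-201. The levels of single copies are therefore uncertain, most of all those of Hba-a1 and Hba-a2.

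**Figure D2:**
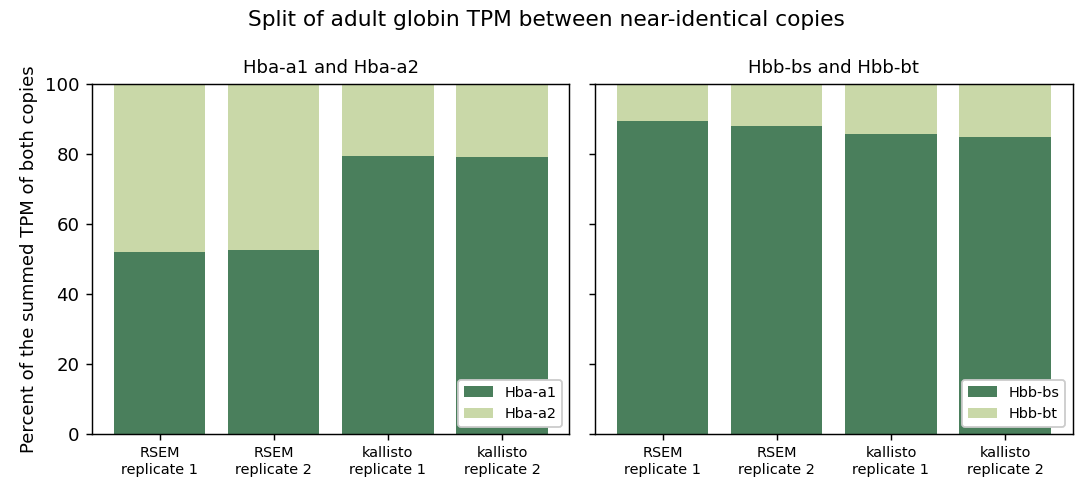
Percent of the summed TPM of Hba-a1 and Hba-a2 (left) and of Hbb-bs and Hbb-bt (right) assigned to each copy, for RSEM and kallisto in each replicate. The Hba-a1 share is near 52% by RSEM and near 79% by kallisto, whereas the Hbb-bs share stays between 84.8% and 89.3%.

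Transcript assignments differed between the tools as well. RSEM placed 14.1% and 13.6% of Hba-a1 TPM on Hba-a1-202, a 494-base retained-intron transcript of 2 exons, where kallisto placed 0%. Kallisto placed 10.5% and 9.54% of Hbb-bs TPM on Hbb-bs-203, a 407-base coding transcript, where RSEM placed 0.07% and 0.06%. For Hbb-bs the main transcript, Hbb-bs-201, still held 99.3% by RSEM and 89.5% and 90.5% by kallisto. The tools also divide by different lengths: the effective length of Hba-a2-201, 554 bases long, was 455 bases in RSEM and 231 bases in kallisto for replicate 1, which raises kallisto's TPM of short globin transcripts for the same number of reads. The summed adult globins stood at 19188 and 14469 TPM by kallisto against 9601 and 7400 TPM by RSEM. As a share of nuclear protein-coding TPM they differed less, at 4.18% and 3.18% by kallisto against 3.50% and 2.66% by RSEM. The part of length in these differences was not tested.

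Alas2 followed the adult globins, and Slc4a1 did not. Alas2, the erythroid enzyme that starts heme synthesis (chrX:150547375-150570638), stood at 54.0 TPM from 2946 counts in replicate 1 and at 41.0 TPM from 2517 counts in replicate 2. Per 1000 TPM of adult globin that is 5.63 and 5.55 TPM of Alas2 (5.59 ± 0.0590, SD, n = 2), a difference far smaller than that of Alas2 itself; kallisto gave 4.56 and 4.43. Slc4a1, the anion exchanger band 3 of the red cell membrane (chr11:102348824-102366203), stood at 4.65 TPM from 447 counts in replicate 1 and at 19.5 TPM from 2154 counts in replicate 2. Per 1000 TPM of adult globin it was 0.484 and 2.64 TPM (1.56 ± 1.52, SD, n = 2), and 0.301 and 2.46 TPM by kallisto. Slc4a1 therefore stood in different proportion to globin in the 2 libraries, whereas Alas2 stood in nearly the same proportion.

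Between the replicates, the adult globin sum was 1.30-fold higher in replicate 1 (log2 replicate 2 over replicate 1 of -0.38). Hbb-bs was 1.36-fold, Alas2 1.32-fold, Hba-a2 1.29-fold and Hba-a1 1.26-fold higher in replicate 1. Of the 6 members averaging 5 TPM or more, these 4 were at least 25% higher in replicate 1, against 8.94% of the 8314 nuclear protein-coding genes at that level. Hbb-bt lay just outside that limit, 1.19-fold higher. That count depended on the scaling: with TMM factors only Hbb-bs passed, 1 of 6 members against 5.30% of genes, and with kallisto or ERCC scaling Hbb-bt passed too, 5 of 6 against 11.6% and 15.8%. The 4 adult globins are products of 1 cell type and share reads within each pair, so they are not independent of each other. Slc4a1 was 4.20-fold higher in replicate 2, the 1 of 6 members at least 2-fold higher there, against 2.27% of genes at that level. Its count ratio, per nuclear protein-coding count, was 4.35 (95% exact interval 3.92 to 4.82), and by kallisto it was 6.16-fold higher. Beside these values, the hepatocyte sum was 17.4-fold higher and the neutrophil sum 2.44-fold higher in replicate 2, while the lymphocyte sum was 7.36-fold higher in replicate 1, and their part in the difference was not tested.

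Slc4a1 transcripts were mostly the full-length form. Of the 447 and 2154 counts, RSEM placed 432.7 and 2096 on Slc4a1-201, the 4545-base coding transcript of 20 exons. In TPM this was 63.7% and 67.7%, because a few counts on noncoding transcripts of 356 and 357 bases weigh heavily per length. By kallisto the share of Slc4a1-201 was 76.7% and 54.0%. Alas2-201, the longer of 2 coding Alas2 transcripts at 2037 bases, held 63.5% and 66.9% of Alas2 TPM by RSEM and 51.1% and 50.4% by kallisto, and Alas2-202 held 19.4% and 20.5% by RSEM. Both coding transcripts of Alas2 were listed above 0 in both libraries by both tools.

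Other genes of the red cell membrane differed among themselves. Of the 16 genes on that list, 15 averaged 1 TPM or more, and 7 of these were at least 2-fold higher in replicate 2, against 3.37% of all 12535 genes at that level. Of the 7, only Slc4a1 averaged 5 TPM or more. In 5 of the 7 the level was under 1 TPM in replicate 1. They passed the minimum only through the library where they were high, and the count is a description. These 5 were Rhd, the Rh blood group protein (0.30 and 2.26 TPM), Epb42, protein 4.2, which ties band 3 to the skeleton (0.52 and 2.77 TPM), Kel, the Kell protease (0.53 and 2.17 TPM), Ermap (0.61 and 2.37 TPM) and Ank1, ankyrin (0.96 and 2.46 TPM). Rhag, the Rh-associated glycoprotein, lay below the mean of 1 TPM at 0.26 and 1.13 TPM. In contrast Aqp1, the water channel shared with endothelium, was lower in replicate 2 at 86.9 and 71.5 TPM, as was Epb41, protein 4.1, made in many cells, at 39.3 and 30.2 TPM, and Sptb, beta spectrin, was nearly alike at 13.3 and 13.9 TPM.

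Erythroid transcription factors also differed among themselves. Of the 7 with an average of 1 TPM or more, 0 were at least 2-fold higher in either replicate. The other 5 lay lower. Klf1, the erythroid Krüppel-like factor, had 7 counts in replicate 1 and 70 in replicate 2, a count ratio of 9.02 (95% exact interval 4.15 to 23.2) per nuclear protein-coding count. Gata1, the GATA factor of red cells and platelets, had 6 and 44 counts (ratio 6.61, interval 2.81 to 19.0), and Nfe2 had 12 and 72 (ratio 5.41). Gfi1b, a repressor of the same cells, had 2 and 22 counts (ratio 9.92, interval 2.44 to 87.0). The fifth, Myb, a factor of progenitors, had 58 and 62 counts (ratio 0.964, interval 0.663 to 1.40). These low factors are named after their values were seen. Tal1 stood at 1.38 and 1.96 TPM, while Klf3, Zbtb7a and Lmo2, which other cells also use, were nearly alike at 19.7 and 19.8, 19.7 and 18.1, and about 8 TPM (349 and 377 counts). Sox6 stood at 13.0 and 9.79 TPM. Bcl11a, which silences embryonic and fetal globins and is also made by B lymphocytes, was lower in replicate 2 at 2.57 and 1.38 TPM.

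**Figure D3:**
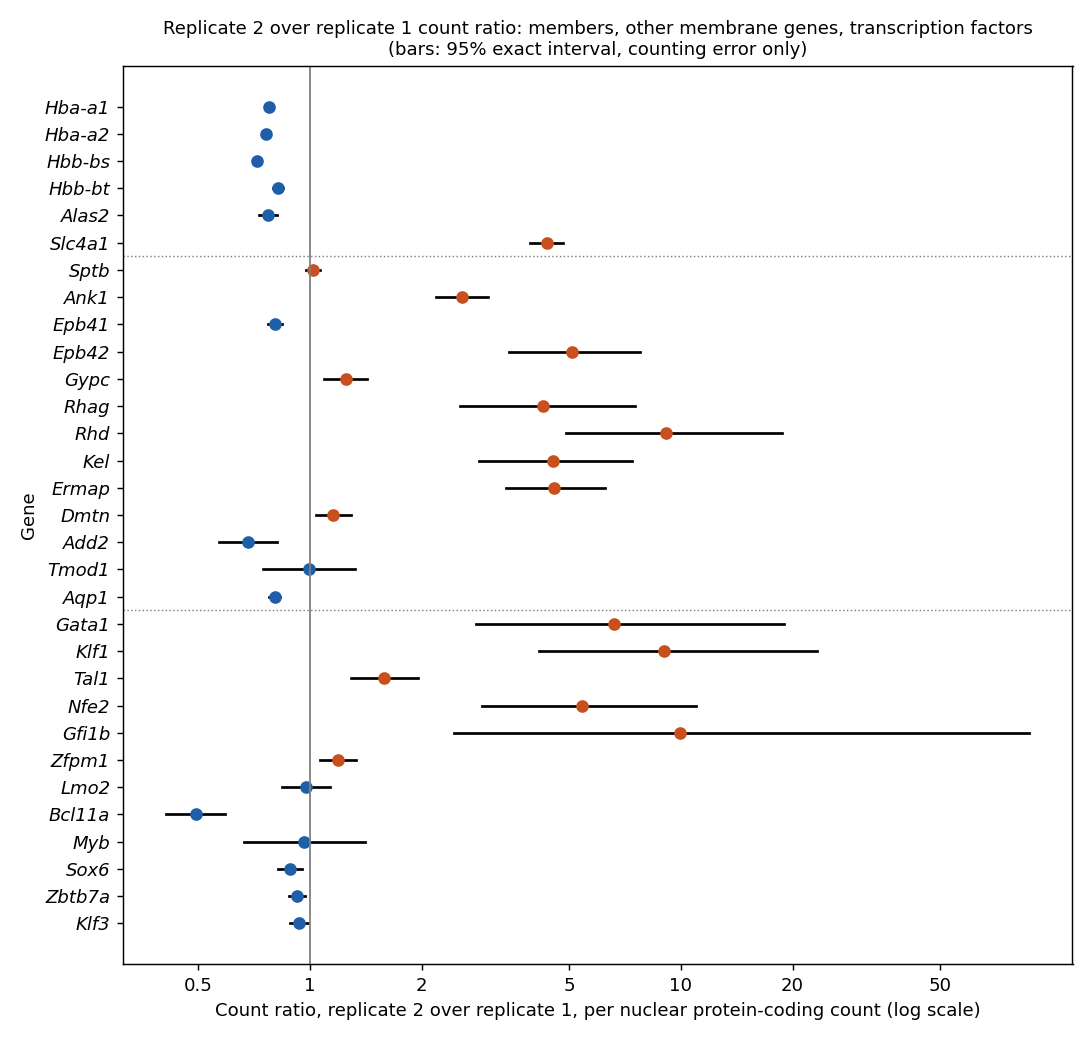
Ratio of expected counts, replicate 2 over replicate 1, each per nuclear protein-coding count, on a log axis, for the 6 members with counts (top), other genes of the membrane list (middle) and the erythroid transcription factors (bottom); bars are 95% exact intervals for counting error only. The adult globins and Alas2 lie below 1, while Slc4a1 at 4.35 lies with Rhag, Kel and Ermap, and Klf1, Gata1, Nfe2 and Gfi1b lie above 5. Not all genes of these lists are raised. Sptb (1.02) and Lmo2 (0.974) lie near 1, and Epb41 (0.803) and Bcl11a (0.491) lie below it.

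The erythroblast and progenitor genes gave a mixed picture. Hemgn, a nuclear protein of erythroblasts, stood at 0.31 and 2.43 TPM. Icam4 and Tspo2, also genes of red cell precursors, had 10 and 35 counts and 15 and 48 counts. The early genes Kit, the receptor for stem cell factor, and Epor, the erythropoietin receptor, were not higher to that extent: Kit stood at 1.93 and 1.62 TPM and Epor at 1.02 and 1.10 TPM. Cd24a, the highest of the list and common to many cells, stood at 18.0 and 21.9 TPM. Tfr2 (0.38 and 7.13 TPM) and Aqp9 (0.42 and 5.47 TPM) differed most, 18.8-fold and 13.0-fold, and both are also genes of hepatocytes, close in fold to the 17.4-fold of the hepatocyte sum. Whether the liver genes account for them was not tested.

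Genes of reticulocyte maturation did not share one direction. Prdx2, the peroxiredoxin of red cells, stood at 141.6 and 154.4 TPM, and Cat, catalase, at 126.5 and 136.4 TPM, both also abundant in other tissues. Bnip3l, which removes mitochondria from reticulocytes, stood at 68.2 and 60.2 TPM, and Mkrn1 at 26.9 and 25.4 TPM. Trim10, an erythroid ubiquitin ligase, was 5.32-fold higher in replicate 2 at 0.34 and 1.81 TPM, and Slc38a5, an amino acid transporter below the 1 TPM mean, had 2 and 42 counts (ratio 18.9, interval 4.93 to 161). Of 14 genes averaging 1 TPM or more, 7 were higher and 7 lower in replicate 2. All genes at that level were 4663 higher and 7834 lower, or 37.2% higher.

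Heme synthesis was detected at every step. All 9 genes reached 1 TPM in both libraries, and 7 of 9 were higher in replicate 2, none by 2-fold. This compares with the 37.2% of all genes that were higher in replicate 2, a share that was 53.3% with TMM factors and 25.2% with ERCC scaling, while 7 of 9 heme genes were higher under both. Alas1, the first enzyme as used outside red cells, was 352.9 and 521.4 TPM, several times Alas2. Fech, which inserts the iron, stood at 46.2 and 51.7 TPM, Urod at 32.1 and 34.8 and Alad at 24.0 and 29.8 TPM. Ppox (10.1 and 9.39 TPM), Cpox (5.45 and 7.50 TPM) and Uros (2.76 and 3.97 TPM) were the lowest. Alas2 and Ppox were the 2 lower in replicate 2. Heme is also made for the cytochromes of steroid-making cells, so these shared steps are not specific to red cells.

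**Figure D4:**
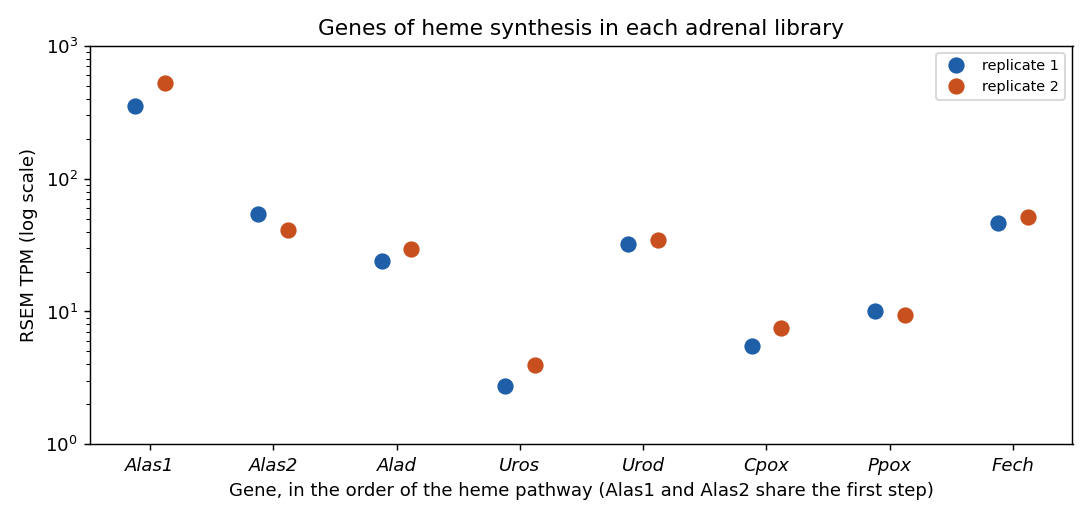
RSEM TPM of 8 heme synthesis genes on a log axis, in pathway order, for replicate 1 (blue) and replicate 2 (orange). Alas1 lies highest, at 352.9 and 521.4 TPM, and Uros lowest, and Alas2 is the one gene clearly lower in replicate 2, at 54.0 and 41.0 TPM.

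Iron and heme supply was also detected throughout. All 10 genes reached 1 TPM in both libraries, with 8 of 10 higher in replicate 2, against the same 37.2% of all genes. With TMM factors 9 of 10 were higher, against 53.3% of all genes, and with ERCC scaling 7 of 10, against 25.2%. Tfrc, the transferrin receptor, stood at 48.1 and 77.0 TPM, the largest difference upward. Flvcr1, a heme exporter, stood at 6.35 and 4.04 TPM, the largest downward. Glrx5 (45.7 and 49.3 TPM), Slc11a2, an iron transporter (25.5 and 27.6 TPM), and Slc25a37, mitoferrin, which feeds iron to erythroid mitochondria (11.1 and 13.5 TPM), differed little.

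Across the 7 lists of red cell, heme and other globin genes, 54 of 81 distinct genes were detected (66.7%), against 54.2% of all nuclear protein-coding genes. At an average of 1 TPM or more, 64 genes were left, of which 11 (17.2%) were at least 2-fold higher in replicate 2, against the 3.37% of all genes, and 0 were at least 2-fold higher in replicate 1. Of these 11 genes, 9 were under 1 TPM in replicate 1 and passed the minimum through replicate 2, so the count is a description only. Slc4a1 was above 1 TPM in both libraries, and of the 11 only Slc4a1 averaged 5 TPM or more. At that higher level 2.27% of all genes were at least 2-fold higher in replicate 2. The 11 include Tfr2 and Aqp9, which are also genes of hepatocytes. Over the 64 genes the median log2 difference of (TPM + 1), replicate 2 minus replicate 1, was 0.12. Over all genes averaging 1 TPM or more it was -0.06. By list it was 0.83 for erythroblast and progenitor genes, 0.49 for the membrane, 0.26 for heme synthesis, 0.11 for iron and heme supply, 0.01 for reticulocyte maturation and -0.04 for transcription factors. The lists were drawn up with earlier results of these data known, and the hepatocyte, lymphocyte and neutrophil sums given above moved between the same libraries.

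**Figure D5:**
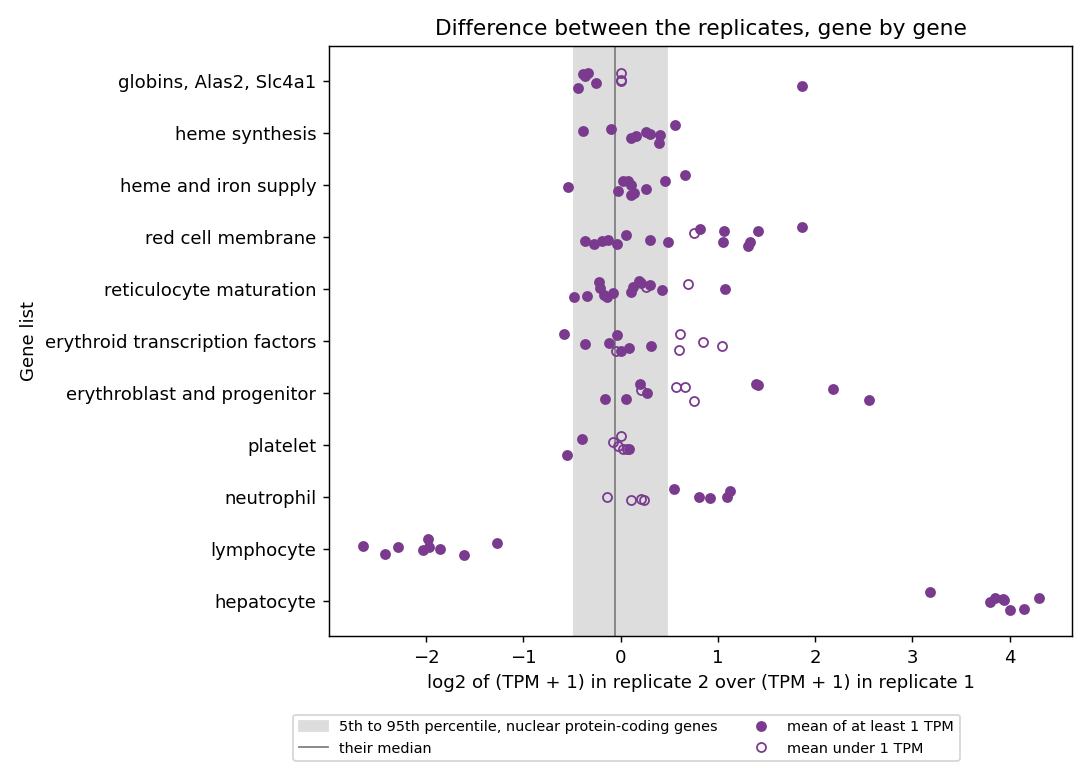
Log2 of (TPM + 1) in replicate 2 over replicate 1 for each gene of 11 lists, with filled points for means of 1 TPM or more, open points below it, and a grey band for the 5th to 95th percentile (-0.48 to 0.48) of the 12535 genes used as background. The 4 adult globins and Alas2 lie inside the band on its lower side, Slc4a1 and part of the membrane and erythroblast genes lie above it, and the lymphocyte and hepatocyte genes lie outside it on opposite sides.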

How the data were processed

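Total RNA-seq of adrenal gland was analysed in 2 libraries of 1 group. Expected counts and TPM per gene and transcript were deposited by the authors against mm10 and GENCODE M21, and their columns, per the file headers, are those of RSEM. The deposited tables also hold posterior means and the bounds of TPM, which are a signal with no fixed total. Transcript shares, a percent column of the deposited tables, were recomputed from TPM. FPKM, per the file headers, was not used. Estimated counts and TPM of a second quantification have the columns of kallisto, per the file headers, and were summed to genes. The aligner, any filter and all tool versions were not given in the sources used here. How far CAST alleles lose reads on mm10 was not measured.

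Genes were matched by symbol (GENCODE M21). Detection meant at least 1 TPM in both libraries. List medians used log2(TPM + 1) of genes averaging 1 TPM or more, and fold counts of the lists used the same genes. Fold counts of the members used genes averaging 5 TPM or more. A count of 0 was set to a limit of 3 counts. Intervals are 95% exact and cover counting error only. TMM factors on rounded expected counts came from edgeR 4.0.16 in R 4.3.3, and the rest from Python 3.11.15 (scipy 1.17.1, numpy 2.4.6, pandas 2.3.3) with figures by matplotlib 3.10.9. The list step was tested on simulated data. The text names all members, the lists of other globins and heme synthesis, and from other red cell lists the 4 genes with the highest mean TPM and the 2 with the largest ratio; further genes are examples chosen after their values were seen. Some genes that this rule takes are counted in their lists but are not reported here. Members and the 18 lists were chosen with earlier results of these data known. Alternatives were kallisto and posterior mean TPM, other scalings, filters, pseudocounts and each replicate alone.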

Additional observations from a re-analysis of the deposited data

How the results depend on the processing

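Of the values of the replicate difference of the 6 members with counts, 30 of 30 (5 alternatives each) kept their sign, but the count of members at least 25% higher in replicate 1, tried under other settings after seeing the data, was 4 as reported, 1 with TMM scaling and 5 by kallisto and with ERCC scaling. The adult globin log2 difference of -0.38 was -0.41 by kallisto, -0.29 with TMM scaling, -0.45 with ERCC scaling and -0.40 per nuclear protein-coding TPM; the median of all genes was -0.07, -0.08, 0.02, -0.14 and -0.09 under the same settings, so the globins lay below it in each. The alpha to beta ratio of 1.73 was 1.42 by kallisto and 1.67 from counts. The adult globin share of 3.08% was 3.68% by kallisto and 0.844% from counts. Alas2 per 1000 globin TPM was 4.49 by kallisto against 5.59. The embryonic share of 0% was 0.00216% by kallisto and 0.00255% by posterior mean, whose prior gives unseen genes a value. The median over the 64 red cell genes, 0.12, was 0.28 as a mean. Transcript shares, an alternative chosen after seeing the data, were 86.1% (RSEM) and 100% (kallisto) for Hba-a1-201, 99.3% and 90.0% for Hbb-bs-201, and 65.2% and 50.8% for Alas2-201. The list medians nearest 0 changed sign under some settings: reticulocyte maturation was -0.09 by kallisto and transcription factors 0.04 by kallisto. The membrane median of 0.49 was 0.01 at a mean of at least 5 TPM, where the low genes drop out, and the erythroblast and progenitor median of 0.83 was 0.27 there and 0.43 by posterior mean. The genes at least 25% higher in replicate 1 numbered 743 of 8314, against 965 of 8302 by kallisto. At means of at least 1 and 20 TPM they numbered 1961 and 128, where the number of genes compared changes as well. Those at least 2-fold higher in replicate 2 numbered 189, against 422 and 67 at the same means. Each replicate alone lay within the SD of the mean, as any value does with n = 2. No paired analysis was possible because there is 1 group. Depth limits genes with few counts, such as Gfi1b with 2 counts in replicate 1.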

Other observations

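Genes that clear haemoglobin and heme showed both directions. Hp, haptoglobin, which binds free haemoglobin, had 30.5 TPM in the replicate 1 library and 155.9 TPM in that of replicate 2, and Hpx, hemopexin, which binds free heme, at 8.30 and 137.0 TPM. Both are made chiefly by hepatocytes, whose 8 marker genes summed to 299.2 and 5200 TPM; their part in this difference was not tested. On the side of macrophages, Cd163, the receptor for the haptoglobin complex, stood at 4.87 and 3.53 TPM and Hmox1, which opens the heme ring, at 8.88 and 7.02 TPM. In the same list Slc40a1 (4.73 and 8.72 TPM) and Lrp1 (36.7 and 54.1 TPM) went the other way. Spic, at 0.68 and 0.75 TPM, was not lower in replicate 2 either. The ferritin chains Fth1 (618.3 and 634.7 TPM) and Ftl1 (169.8 and 185.6 TPM) were nearly alike. Of the 11 clearance genes averaging 1 TPM or more, 8 were higher in replicate 2 (9 with TMM factors and 6 with ERCC scaling), against 37.2% of all genes (53.3% and 25.2%).

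Sums of other blood cell genes moved in both directions. The platelet sum (1.41-fold), the macrophage sum (1.21-fold) and the lymphocyte sum (7.36-fold) were higher in replicate 1, as was the adult globin sum (1.30-fold). The neutrophil sum was higher in replicate 2. Platelet genes summed to 12.7 and 9.03 TPM, with Pf4 at 8.70 and 5.61 TPM, Itga2b with 138 and 80 counts and Ppbp at 1.45 and 1.60 TPM; Gp9 had 4 counts in each library. Among neutrophil genes S100a9 stood at 3.24 and 8.22 TPM and S100a8 at 3.13 and 6.82 TPM. Ngp (0.79 and 2.82 TPM), Ltf (0.70 and 1.98 TPM) and Camp (0.65 and 1.41 TPM) averaged 1 TPM only through replicate 2, and Ctsg went the other way with 5 and 1 counts. Lymphocyte genes were lower in replicate 2, with Cd52 with 286 and 37 counts, Ptprc at 14.7 and 1.92 TPM, Cd79a at 9.32 and 1.63 TPM and Cd3e at 5.09 and 0.49 TPM. Macrophage genes summed to 40.5 and 33.5 TPM. Among them Timd4 stood at 2.95 and 0.39 TPM, and Vsig4, named after its values were seen, had 3 and 41 counts (count ratio 12.3, 95% exact interval 3.93 to 62.2). Endothelial genes summed to 220.2 and 194.1 TPM and proliferation genes to 103.2 and 126.6 TPM.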
